A study of Mus musculus with 12 samples.

Results

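The simple epithelial keratins measured here were 7 genes, chosen by name with earlier results of these data known: the type II keratins Krt7, Krt8 and Krt80 and the type I keratins Krt18, Krt19, Krt20 and Krt23. They are 7 of the 54 genes of the table whose symbol is Krt and a number, and 7 of its 27179 genes in all. Values came from whole-kidney RNA sequencing of 12 mice, 3 in each of 4 groups, and are TPM, transcript levels that take gene length into account and sum to 1000000 in each library. Wild-type and FAN1KO mice each received saline or cisplatin. FAN1KO mice carried γGT1-Cre;Fan1-/-, in which the Ggt1 promoter drives Cre so that the nuclease FAN1 is lost in proximal tubule cells, and the other kidney cells keep the gene. All mice were 8 to 12 weeks old. Their strain background is mixed by the labels, while the study's methods describe a backcross of FAN1KO mice to 129Sv-Elite, and the labels do not give their sex. Cisplatin, a drug that crosslinks DNA, was injected intraperitoneally at 2 mg/kg once a week for 5 weeks, and control mice of both genotypes received saline. FAN1 acts in the repair of such crosslinks, so the comparisons ask which transcripts changed when proximal tubule cells without FAN1 met repeated cisplatin.

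Keratins are the intermediate filament proteins of epithelia. Each filament is built from pairs of 1 type I and 1 type II keratin, and a keratin without a partner is unstable. Krt8 with Krt18 is the founding pair of single-layered epithelia, Krt7 and Krt19 are typical of ducts such as the collecting duct, and Krt20 is best known from intestinal and urothelial surface cells. In the healthy kidney keratins are most abundant in the distal nephron and collecting duct and scarce in the proximal tubule, and Krt8, Krt18 and Krt20 are known to appear in injured tubule cells.

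In GRCm38.p6, the RefSeq assembly that matches the mm10 build of the submitters' processing notes, the type II genes lie together on chromosome 15: Krt80 (gene 74127) at chr15:101348315-101370162, Krt7 (110310) at chr15:101412403-101427806 and Krt8 (16691) at chr15:101996711-102004342. Krt18 (16668) is a type I keratin that sits next to Krt8, at chr15:102028216-102032026. The other type I genes lie on chromosome 11: Krt20 (66809) at chr11:99428385-99438153, Krt23 (94179) at chr11:99477973-99493120 and Krt19 (16669) at chr11:100140810-100145926. Krt80 overlaps the annotated genes Gm35853 and Mir1941. RefSeq also lists a pseudogene of Krt8, and how reads shared with it or between overlapping genes were counted is not given in the sources used here, so the levels of Krt8 and Krt80 are uncertain to that extent.

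The RefSeq table of promoters held 5 of the 7 keratins and neither Krt19 nor Krt80. The start regions of Krt7, Krt8, Krt18 and Krt20 are shown because these genes rose together in FAN1KO kidneys under cisplatin. Each runs from 80 bases before to 20 bases after the annotated start, on the strand of the gene, and capitals mark the motif TATAA, searched on both strands from 40 bases before to 20 bases after the start. Krt7 lies at chr15:101412323-101412422 (plus strand), Krt8 at chr15:102004323-102004422 (minus), Krt18 at chr15:102028136-102028235 (plus) and Krt20 at chr11:99438134-99438233 (minus).
Krt7: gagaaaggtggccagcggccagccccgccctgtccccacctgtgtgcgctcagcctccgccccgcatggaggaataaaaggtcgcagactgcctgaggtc
Krt8: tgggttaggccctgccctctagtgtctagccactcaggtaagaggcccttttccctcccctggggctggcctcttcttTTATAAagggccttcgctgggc
Krt18: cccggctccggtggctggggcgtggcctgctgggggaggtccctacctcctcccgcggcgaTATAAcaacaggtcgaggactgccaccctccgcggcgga
Krt20: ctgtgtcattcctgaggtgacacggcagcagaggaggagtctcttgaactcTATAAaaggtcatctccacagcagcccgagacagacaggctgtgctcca

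The motif began at −29 in Krt20, at −19 in Krt18 and at −1 in Krt8, where a match on the other strand at −2 overlapped it. Krt7 and Krt23 had none in that window, and 6.66% of the 32851 RefSeq promoters had at least 1. The 250 bases before the start of Krt7 held 4 copies of GGGCGG, at −141, −128, −56 and −24, a motif found in 32.7% of all promoters and in none of the other 4 keratins. TGANTCA and AACCGGTT, present in 6.75% and 0.116% of promoters, were in none of the 5. These motifs were chosen after the values of the genes were known, and a match describes letters only.

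Recovered from the steps in the TPM, the reads behind each library numbered 37201961 to 82947246, and 1 read in a gene of 1 kilobase was worth 0.02 to 0.0479 TPM. Fan1 itself was 3.8, 3.35 and 1.98 TPM in wild-type and 1.17, 1.54 and 2.28 in FAN1KO kidneys on saline, then 2.33, 3.57 and 3.32 in wild-type and 2.72, 3.51 and 1.55 in FAN1KO kidneys under cisplatin, so the genotypes overlapped and whole-kidney Fan1 did not check the labels. Each group held 1 library with Y-linked RNA: replicate 3 of wild-type and replicate 1 of FAN1KO kidneys on saline, and replicate 1 of wild-type and replicate 3 of FAN1KO kidneys under cisplatin. Transcripts of the mitochondrial genome made up 18.3% to 22.7% of the TPM in the 9 other libraries and 10.2%, 13.7% and 16.7% in FAN1KO cisplatin libraries 1, 2 and 3. The tissue carried the markers of kidney in every group: the 8 proximal tubule markers summed to 2448 TPM or more and the 8 collecting duct principal cell markers to 477 or more in each library.

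FAN1KO kidneys under cisplatin stood apart from the other 3 groups in their keratin mRNA. Krt20, Krt19, Krt18, Krt8 and Krt7 were higher than in wild-type kidneys under cisplatin, by 26.6-, 12.8-, 7.12-, 3.71- and 2.41-fold on mean TPM, and each of these rises passed the test. Krt23 was 2.52-fold higher without passing it, and Krt80 was 0.695 times the wild-type level and did not pass either. The comparison of genotypes on saline and that of treatments in wild-type mice called 0 of the 7, where 0.341% and 0.0601% of all genes tested were called higher.

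**Figure D1:**
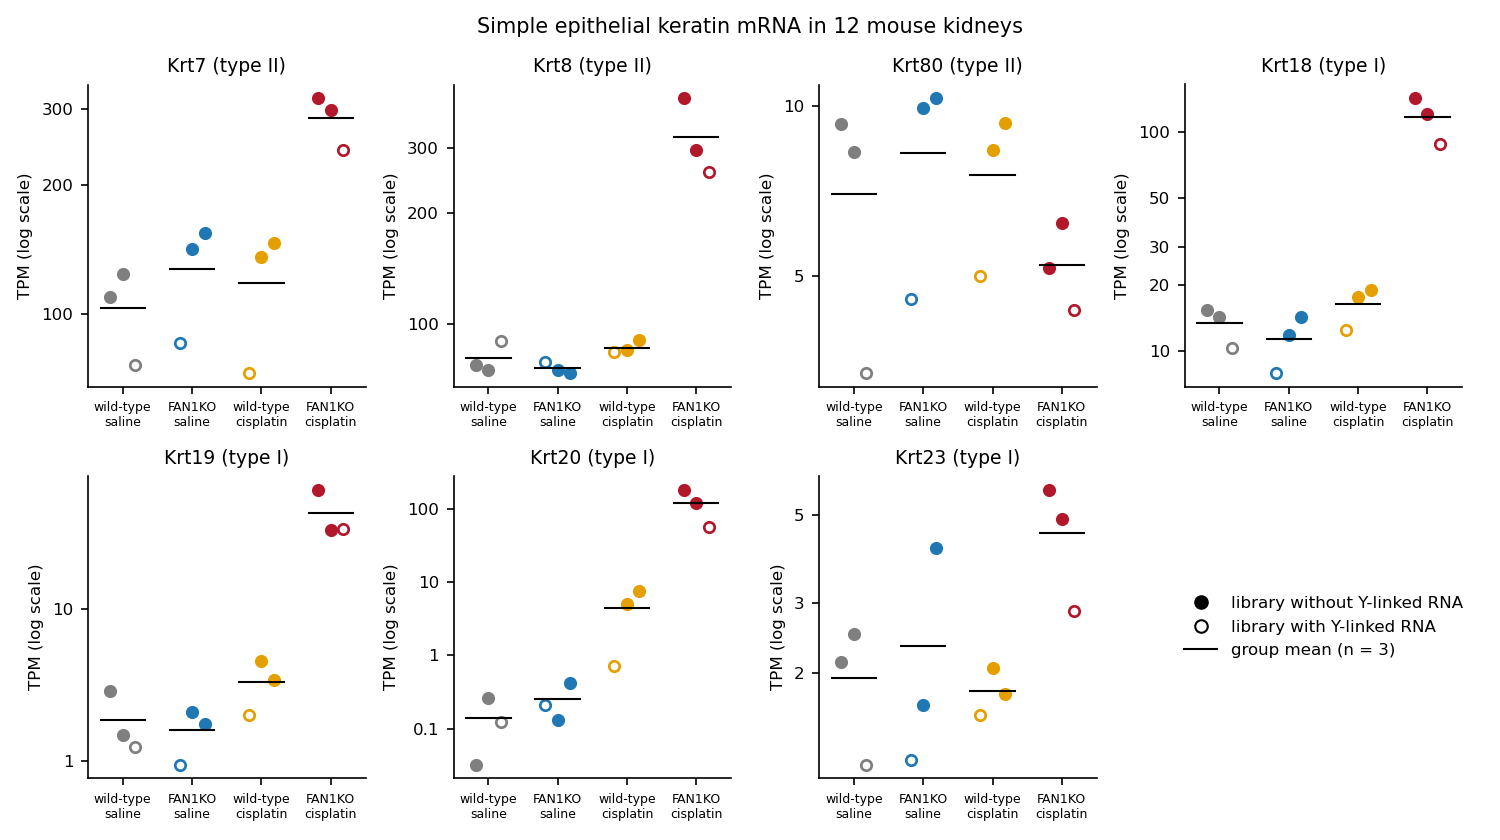
TPM of each keratin (log axis, a separate scale for each gene) in the 12 libraries, grouped by genotype and treatment with 3 mice a group. Points are single kidneys, open where Y-linked RNA was present, and lines are group means; for Krt7, Krt8, Krt18, Krt19 and Krt20 the 3 FAN1KO cisplatin points lie above all 9 others.

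In wild-type kidneys on saline the type II keratins were the abundant ones. Mean TPM was 103 ± 24.5 for Krt7 and 81.0 ± 8.03 for Krt8 (SD, n = 3, as for all means here), and the values of these 2 genes overlapped. Krt18 followed at 13.4 ± 2.65 and Krt80 at 6.98 ± 3.16, which did not overlap. Krt23 at 1.93 ± 0.689 and Krt19 at 1.87 ± 0.893 overlapped each other. Krt20 was lowest at 0.14 ± 0.116 TPM, resting on 2, 12 and 12 reads. In FAN1KO kidneys under cisplatin the order was Krt8 (321 ± 78.7), Krt7 (285 ± 39.2), Krt20 (118 ± 62.5), Krt18 (117 ± 27.0), Krt19 (42.6 ± 15.9), Krt80 (5.25 ± 0.917) and Krt23 (4.52 ± 1.5). In that group the values of Krt8 and Krt7, of Krt20 and Krt18, and of Krt80 and Krt23 overlapped, and Krt19 overlapped only with Krt20.

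Differences between groups were tested by limma on log2(TPM + 1) over 14972 genes, with adjusted p over all of them, and each log2 fold change below is on that scale. Fold changes given as ratios are of mean TPM. Between FAN1KO and wild-type mice that received cisplatin, 5 of the 7 keratins were called higher, where 19.6% of all genes tested were, and 0 were called lower, where 4.37% were. In 6 of the 7 the FAN1KO values lay wholly above the wild-type values, which held for 35.7% of all genes. The median log2 fold change of the 7 was 1.85, against 0.24 over all genes. That general shift depended on scaling: after median-ratio scaling the median of all genes was −0.02, and 1300 genes were called higher and 1154 lower in place of 2931 and 654, while the same count of 5 keratins was called higher. All 7 keratins passed the filter on low values. Krt20 reached 1 TPM in 2 wild-type cisplatin libraries and so passed only with the FAN1KO cisplatin libraries, the group where it is high. Of the other 6 keratins 4 were called higher. In whole kidneys, fewer cells of a type and less RNA per cell cannot be told apart, and the same holds for more cells and more RNA.

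Among the type II keratins, Krt8 is the partner of Krt18 in simple epithelia. It was 77.7, 75.1 and 90.1 TPM in wild-type and 79.2, 75.3 and 73.7 in FAN1KO kidneys on saline, then 83.9, 85 and 90.4 in wild-type and 409, 296 and 258 in FAN1KO kidneys under cisplatin. Only the last 3 stood out, and the other 9 libraries lay within 73.7 to 90.4 TPM. Under cisplatin the log2 fold change between genotypes was 1.85 (SE 0.15, 95% interval 1.53 to 2.18, limma adjusted p 7.86e-05), the 189th largest rise of all genes.

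Krt7, the type II keratin of ducts, was 110, 124 and 76.2 TPM in wild-type and 85.9, 142 and 154 in FAN1KO kidneys on saline, then 73.1, 136 and 146 in wild-type and 317, 297 and 241 in FAN1KO kidneys under cisplatin. The FAN1KO cisplatin values again lay above all others, and in each of the 4 groups the library with Y-linked RNA was the lowest. That library also had the smallest median-ratio size factor of its group (0.788, 0.752, 0.841 and 1.09 in the order above). Median-ratio scaling divides TPM by this factor, and a small one means that genes in general read low there. Between genotypes under cisplatin the log2 fold change was 1.32 (SE 0.30, limma adjusted p 0.0114). Without FAN1KO cisplatin replicate 1 it was 1.24 with an adjusted p of 0.0523, and over the 12 fits that left out 1 library each the adjusted p ran from 0.00779 to 0.0523.

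Krt80 behaved differently. This type II keratin, otherwise known from differentiating and stratified epithelia, was 9.29, 8.28 and 3.38 TPM in wild-type and 4.57, 9.91 and 10.3 in FAN1KO kidneys on saline, then 5.0, 8.35 and 9.31 in wild-type and 5.17, 6.2 and 4.37 in FAN1KO kidneys under cisplatin. In every group the library with Y-linked RNA had the lowest Krt80, and the groups overlapped. As given for Krt7, that library also had the smallest median-ratio size factor of its group, and the part of library scale in this pattern was not tested. The log2 fold change under cisplatin was −0.42 (SE 0.37, 95% interval −1.24 to 0.39, limma adjusted p 0.429). Among the 8 libraries without Y-linked RNA, a comparison added after the values were seen, the FAN1KO cisplatin kidneys (5.17 and 6.2) were below the wild-type cisplatin kidneys (8.35 and 9.31), and Krt80 was called lower with a log2 fold change of −0.56 (limma adjusted p 0.0151). In that fit 1162 of the 14972 genes tested were called lower. With the Y-linked level as a covariate over all 12 libraries the limma adjusted p for Krt80 was 0.0781.

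Of the type I keratins, Krt18 is the partner of Krt8 and its neighbour on the chromosome. The level of Krt18 was 15.4, 14.4 and 10.4 in wild-type and 7.97, 11.9 and 14.4 in FAN1KO kidneys on saline, then 12.5, 17.7 and 19.1 in wild-type and 142, 120 and 88.3 in FAN1KO kidneys under cisplatin. The lowest FAN1KO cisplatin kidney was well above the highest of the other 9. Its log2 fold change between genotypes under cisplatin was 2.75 (SE 0.25, 95% interval 2.20 to 3.31, limma adjusted p 1.53e-04), an interval that lay above that of Krt8; the difference between these genes was not tested. Krt18 ranked 46th among all rises and Krt8 189th.

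Krt19, a small type I keratin of ducts, was 2.89, 1.48 and 1.23 TPM in wild-type and 0.946, 2.1 and 1.75 in FAN1KO kidneys on saline, then 2.0, 4.55 and 3.41 in wild-type and 60.9, 33.1 and 33.7 in FAN1KO kidneys under cisplatin. Wild-type cisplatin overlapped wild-type saline, and FAN1KO cisplatin did not overlap any group. Under cisplatin FAN1KO exceeded wild-type by 3.32 on the log2 scale (SE 0.32, limma adjusted p 2.38e-04), the 16th largest rise.

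Krt20 had the widest range. It was 0.0324, 0.263 and 0.124 TPM in wild-type and 0.213, 0.13 and 0.414 in FAN1KO kidneys on saline, then 0.72, 4.98 and 7.64 in wild-type and 181, 119 and 55.5 in FAN1KO kidneys under cisplatin. Recovered reads for the gene were 2, 12 and 12, then 12, 6 and 20 on saline, 47, 212 and 308 in wild-type cisplatin and 7288, 5137 and 2374 in FAN1KO cisplatin kidneys. Both cisplatin groups thus lay above both saline groups without overlap, and the FAN1KO cisplatin group lay above the wild-type cisplatin group. The log2 fold change between genotypes under cisplatin was 4.58 (SE 0.55, 95% interval 3.38 to 5.79, limma adjusted p 5.95e-04), the 3rd largest rise of the 14972 genes. Krt20 passed the filter on low values only with the FAN1KO cisplatin libraries, so its place among the genes tested came through the group where it is high. With no filter, over 22557 genes, the log2 fold change was again 4.58 (limma adjusted p 0.00111). Without wild-type cisplatin replicate 1 it was 3.9, and over all fits that left out 1 library it ran from 3.9 to 5.06, with adjusted p up to 0.00424. Krt20, whose start region is shown above, was thus at most 0.414 TPM in the 6 saline kidneys.

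Krt23, a type I keratin of low abundance here, was 2.13, 2.5 and 1.17 TPM in wild-type and 1.2, 1.66 and 4.13 in FAN1KO kidneys on saline, then 1.56, 2.06 and 1.77 in wild-type and 5.81, 4.89 and 2.87 in FAN1KO kidneys under cisplatin. FAN1KO exceeded wild-type in every kidney under cisplatin but overlapped FAN1KO saline, where replicate 3 was high. Its log2 fold change under cisplatin was 0.95 (SE 0.33, limma adjusted p 0.0582). The call turned with the fit: the adjusted p was 0.0056 with the Y-linked level as a covariate and 0.205 without FAN1KO cisplatin replicate 1.

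**Figure D2:**
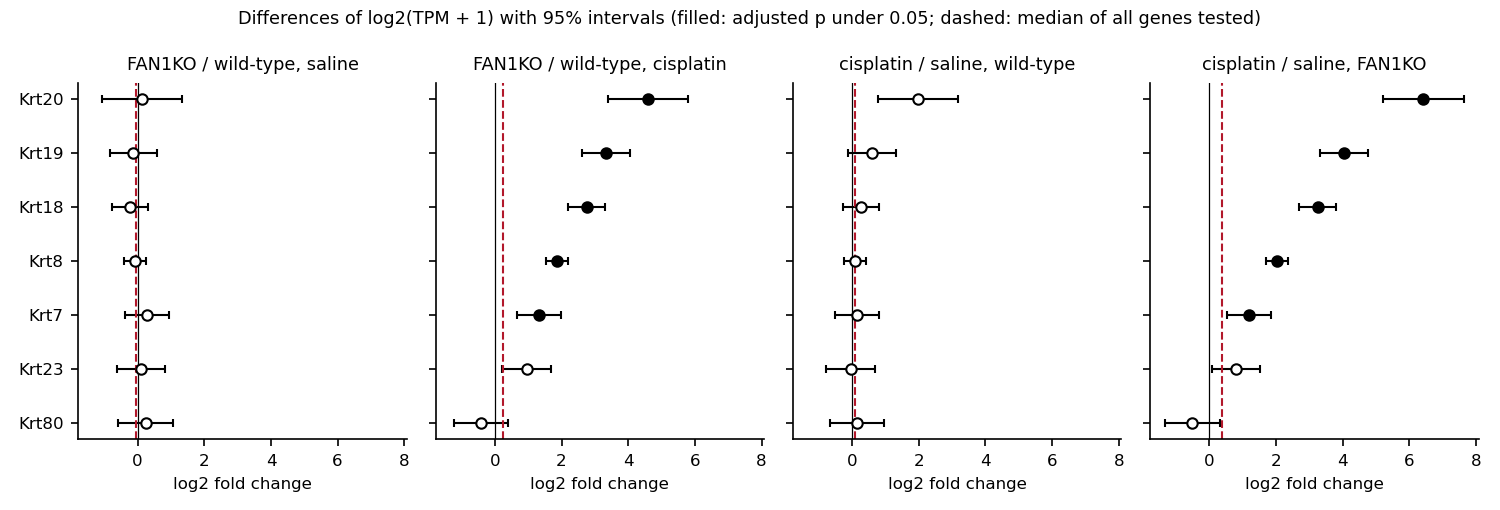
Log2 fold change of each keratin in the 4 comparisons of groups, with 95% intervals from limma. Filled points had an adjusted p under 0.05 and the dashed line is the median of all genes tested; filled points occur only in the 2 comparisons that contain the FAN1KO cisplatin group, for Krt7, Krt8, Krt18, Krt19 and Krt20.

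Without cisplatin the genotypes were close for these genes, except that Krt20 rested on too few reads to tell. On saline, log2 fold changes of FAN1KO against wild-type ran from −0.23 for Krt18 to 0.28 for Krt7, the groups overlapped for all 7, and limma called 0. At an unadjusted p under 0.05 the count was also 0, and voom on the recovered reads called 0. For Krt20, which lay below the added 1 TPM, the log2 fold change of 0.13 understates a ratio of mean TPM of 1.81. It was 0.59 with a pseudocount of 0.1 and 1.09 (SE 2.12) by voom. The 95% interval for Krt8 was −0.41 to 0.24 and that for Krt20 was −1.07 to 1.34, so a difference of more than about 1 on the log2 scale was outside the interval for Krt8 but not for Krt20.

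Cisplatin against saline within FAN1KO mice gave the same 5 genes, a comparison that shares the FAN1KO cisplatin group with the one above and is not independent of it. Here 5 of 7 were called higher, where 34.9% of all genes tested were, and the 5 did not overlap between treatments, which held for 47.4% of all genes. Krt20 passed the filter on low values only with the FAN1KO cisplatin libraries, the group where it is high. Of the other 6 keratins those called were Krt19, Krt18, Krt8 and Krt7. Log2 fold changes were 6.42 for Krt20, 4.04 for Krt19, 3.26 for Krt18, 2.04 for Krt8 and 1.19 for Krt7, with limma adjusted p from 3.72e-05 to 0.0102. Mean Krt20 was 468-fold higher than in FAN1KO saline kidneys, a ratio that rests on 6 to 20 reads a library in its denominator. Krt23 differed by 0.79 (adjusted p 0.0769) and was called higher with the Y-linked covariate, at 0.81 (adjusted p 0.00984). That makes 6 of 7, where 52.9% of all genes tested were called higher with this covariate. Krt80 differed by −0.51 (adjusted p 0.291). The median over all genes was 0.37, which median-ratio scaling moved to −0.03, with 2157 genes then called higher and 2101 lower in place of 5229 and 733. Under that scaling Krt80 was called lower, at −0.90 (adjusted p 0.0298), and it was also called lower with the Y-linked covariate, at −0.49 (adjusted p 0.0324), and in the 8 libraries without Y-linked RNA, at −0.74 (adjusted p 0.00307). Of the 14972 genes tested, 1222 were called lower with that covariate and 1256 in the 8 libraries.

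In wild-type mice cisplatin left these keratins near their saline levels, apart from Krt20. limma called 0 of the 7, and voom on the recovered reads called 0. At an unadjusted p under 0.05 there was 1, Krt20, at 1.97 on the log2 scale (SE 0.55, unadjusted p 0.00425, adjusted p 0.885). Its mean TPM was 31.8-fold the saline mean, a ratio over 2 to 12 reads a library, and the log2 scale with 1 TPM added understates it: the log2 fold change was 3.85 with a pseudocount of 0.1 (adjusted p 0.238) and 4.59 by voom (adjusted p 1). Krt20 was also the 1 keratin whose treated and control values did not overlap, which held for 5.2% of all genes. Wild-type cisplatin replicate 1, the library with Y-linked RNA, was the lowest of its group at 0.72 TPM. Without it the log2 fold change was 2.66 with an adjusted p of 0.0303, and among the 8 libraries without Y-linked RNA it was 2.65 with an adjusted p of 0.0166. Krt19 differed by 0.59 (95% interval −0.13 to 1.31), and the remaining 5 keratins by −0.04 to 0.27.

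Whether cisplatin changed the keratins more in FAN1KO than in wild-type mice was tested directly, as the difference between both log2 fold changes. This genotype by treatment interaction was called higher for 4 of 7 keratins, where 5.22% of all genes tested were, and for 3 of the 6 other than Krt20. It was 4.45 for Krt20 (SE 0.77, limma adjusted p 0.0143), 3.45 for Krt19 (SE 0.46, adjusted p 0.00596), 2.98 for Krt18 (SE 0.35, adjusted p 0.00461) and 1.94 for Krt8 (SE 0.21, adjusted p 0.0031). Krt7 reached 1.03 (adjusted p 0.158), Krt23 0.83 (adjusted p 0.29) and Krt80 −0.67 (adjusted p 0.458). For Krt20, voom on the recovered reads gave 4.17 with a SE of 2.27 and an adjusted p of 0.276, on the few reads of the saline libraries, and without wild-type cisplatin replicate 1 limma gave 3.76 (range 3.76 to 4.93 with 1 library left out, adjusted p up to 0.0403). For Krt7 the adjusted p was 0.00245 with the Y-linked level as a covariate.

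The make-up of the keratin pool changed with these levels. The 7 genes together were 179 to 278 TPM in the other 9 libraries and 1121, 876 and 684 TPM in FAN1KO cisplatin kidneys 1, 2 and 3. Type II keratins made up most of the pool in every library, but the ratio of type I to type II TPM was 0.0609 to 0.13 in the 9 libraries and 0.532, 0.462 and 0.358 in the 3 FAN1KO cisplatin kidneys. Krt20 took 16.1%, 13.5% and 8.11% of the pool there, against at most 0.16% on saline and 0.403%, 1.93% and 2.75% in wild-type cisplatin kidneys. Krt7, at 40.9% to 59.5% of the pool in the 9 libraries, made up 28.3%, 33.9% and 35.3%. The share of Krt8 was 28.5% to 49.4% in the 9 libraries and 33.7% to 37.7% in FAN1KO cisplatin kidneys, so these overlapped. For the pair of Krt18 and Krt8, the ratio of Krt18 to Krt8 TPM was 0.101 to 0.211 in the 9 libraries and 0.347, 0.407 and 0.342 in the 3. Sums and ratios over the chosen genes were given no test.

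**Figure D3:**
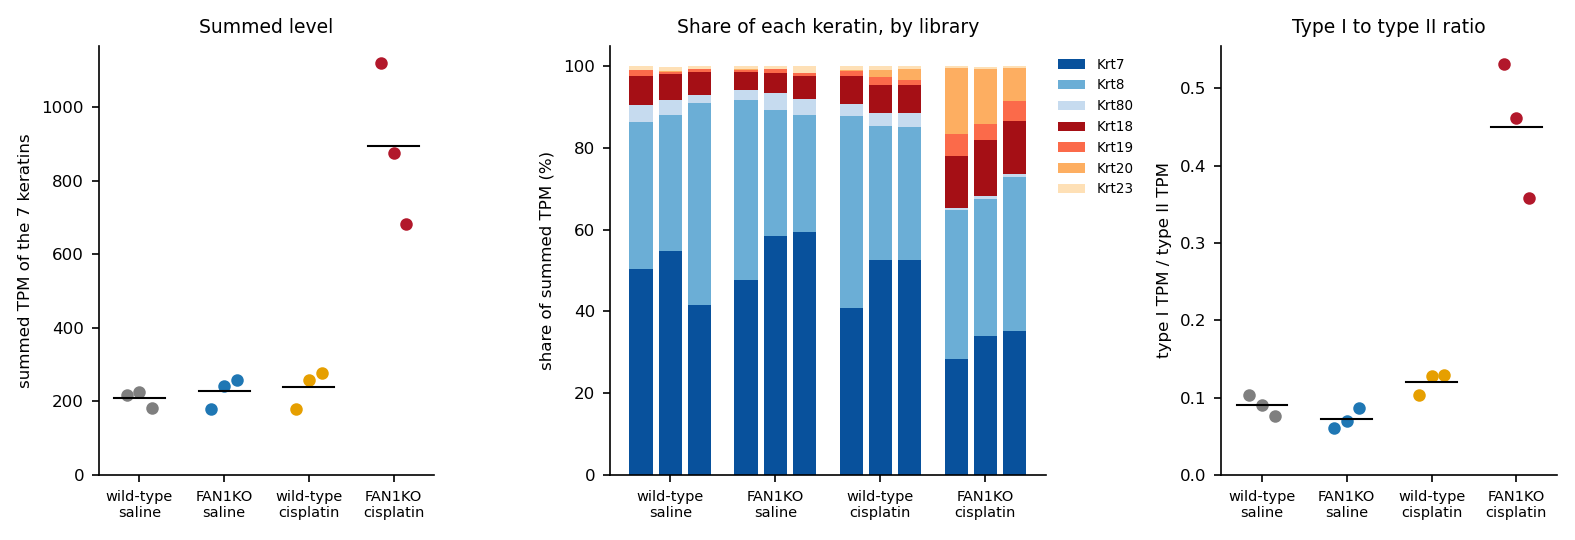
Left, summed TPM of the 7 keratins per library; middle, share of each keratin in that sum, with type II genes in blue and type I genes in red to yellow; right, the ratio of type I to type II TPM. Points and bars are single kidneys and lines are means of 3; the FAN1KO cisplatin kidneys have the highest sums (684 to 1121 TPM) and ratios (0.358 to 0.532).

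Individual FAN1KO cisplatin kidneys differed in their keratin TPM. Replicate 1 was the highest of its group for 6 of the 7 genes, Krt80 being the exception, and replicate 3 was the lowest for 6 of the 7, Krt19 being the exception. The median-ratio size factors of this group, 1.38, 1.24 and 1.09 by replicate, ran in the same order, so genes in general read highest in replicate 1. The share of all genes in that order was not counted. The summed keratin TPM of 1121, 876 and 684 went with mitochondrial shares of 10.2%, 13.7% and 16.7%, and replicate 3 was the library with Y-linked RNA. With the mitochondrial genes left out and each library rescaled, the counts of keratins called were again 5 higher between genotypes under cisplatin, 5 higher between treatments in FAN1KO mice and 4 in the interaction, where 12.2%, 24.6% and 2.98% of all genes were called higher. Among the 8 libraries without Y-linked RNA these counts were 6, 5 and 5, where 28.9%, 44.4% and 13.4% of all genes were. In each of the 3 comparisons Krt80 was called lower there, as were 1162, 1256 and 434 of the 14972 genes tested.

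Profiles over the 12 libraries were compared by the root-mean-square difference of log2(TPM + 1) after centring each gene on its mean, as a description over libraries that share their depth and groups. The genes nearest to Krt8 were Areg (0.11), which encodes the EGF receptor ligand amphiregulin, Ptprn (0.13) and Serpinb9b (0.14). Krt18 was nearest to Klrg2 (0.17), Lgals3 (0.23), which encodes galectin-3, and Cldn4 (0.25), a tight junction claudin. Krt19 was nearest to Smpdl3b (0.28), Akr1b8 (0.34) and Cxcl17 (0.35), and Krt20, at a greater distance, to Sprr1a (0.65), a small proline-rich protein of cornified envelopes, S100a6 (0.80) and Lcn2 (0.80), the injury marker lipocalin-2. Near Krt7 were Slc44a3 (0.12), Tax1bp3 (0.13) and Cuedc2 (0.15), near Krt23 Arhgef2 (0.16), Serpinb1a (0.17) and Snhg12 (0.18), and near Krt80 the beta-defensin Defb1 (0.16), Kcnj12 (0.16) and Mmab (0.17).

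The keratins were not each other's nearest genes. Of 14971 genes ranked, Krt18 was number 1495 for Krt8, at a difference of 0.55, and Krt8 was number 148 for Krt18. The profiles were not scaled, so genes that rise in the same libraries by different amounts are also set apart. Krt8 and Krt18 were both highest in the FAN1KO cisplatin kidneys. The closest members to each other were Krt18 and Krt19, at a difference of 0.41, with Krt18 number 7 for Krt19 and Krt19 number 45 for Krt18. For Krt20, Krt19 was number 13 (1.16) and Krt18 number 36 (1.46). For Krt80 the other keratins stood between number 11064 and number 14961.

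The other 47 keratin genes of the table were mostly at or near 0, and 3 passed the filter on low values. Krt12, a type I keratin of the corneal epithelium, was at most 0.697 TPM in the 9 libraries and 1.34 to 4.56 TPM in FAN1KO cisplatin kidneys. It passed the filter only through that group, so its test is not read here. Krt10, a keratin of upper epidermis, was 8.42 to 11.7 TPM in FAN1KO cisplatin and 11.7 to 15 in wild-type cisplatin kidneys, with a log2 fold change of −0.41 (adjusted p 0.114). Krt222 differed by 0.35 (adjusted p 0.367). Summed over the 47 genes the level was 12 to 20.3 TPM in the 9 libraries and 15.6 to 18.9 TPM in FAN1KO cisplatin kidneys, which overlapped.

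Proteins that hold keratin filaments were followed by a list of 14 desmosome and plakin genes, of which 12 were tested. Between genotypes under cisplatin 5 were called higher and 0 lower, with a median log2 fold change of 0.55. This and the list values that follow stand beside a median of 0.24 over all genes, of which 19.6% were called higher and 4.37% lower. Ppl, which encodes periplakin, was 12.3 to 22.4 TPM in FAN1KO against 1.02 to 4.09 TPM in wild-type kidneys under cisplatin (log2 fold change 2.34, limma adjusted p 0.007). Plec, the linker plectin, rose by 1.13 (adjusted p 0.00438) and Dsp, desmoplakin, by 1.07 (adjusted p 0.0397). Jup, plakoglobin, differed by 0.46 (adjusted p 0.0688). Evpl and Macf1, which also encode plakins, differed by 0.02 and 0.06 (adjusted p 0.961 and 0.878).

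Of 10 genes for proteins that bind or handle keratins, 9 were tested, and 2 were called higher and 0 lower, with a median of 0.37. That count is close to the share over all genes. Hspb1, a small heat shock protein that associates with keratin filaments, was 122 to 179 TPM in FAN1KO and 17.5 to 39.1 TPM in wild-type kidneys under cisplatin (2.37, limma adjusted p 0.00226). Sfn, the 14-3-3 protein sigma that binds Krt17 and Krt18, was 8.7 to 38.1 against 0.935 to 2.95 TPM (2.61, adjusted p 0.00656). On saline Sfn was 3.55 to 11.8 TPM in FAN1KO and 0.78 to 1.84 TPM in wild-type kidneys, without overlap (1.68, adjusted p 0.291). Ywhaz, another 14-3-3 gene, differed by 0.20 (adjusted p 0.559).

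Among 14 other intermediate filament genes, 11 were tested and 2 were called higher and 0 lower, with a median of 0.65. This count too is close to the share over all genes. Lmna, which encodes the nuclear lamins A and C, was 101 to 140 TPM in FAN1KO and 39.6 to 55.5 TPM in wild-type kidneys under cisplatin (1.25, limma adjusted p 5.86e-04), and Prph, peripherin, rose by 1.09 (adjusted p 0.0258). Vim, vimentin, the filament of mesenchymal cells and of dedifferentiated tubule cells, was 54.2 to 100 TPM in FAN1KO and 20.9 to 54.4 TPM in wild-type kidneys, which overlapped (0.84, adjusted p 0.205). Des, desmin, differed by −0.06 (adjusted p 0.955).

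Transcription factors of epithelia were the list with the most calls outside the cell type markers: 7 of 12 tested, of 16 listed, were called higher and 0 lower, with a median of 0.95. Klf5 was 6.14 to 10.7 TPM in FAN1KO and 0.548 to 2.07 TPM in wild-type kidneys under cisplatin (2.01, limma adjusted p 0.00125). Sox9, a factor of the regenerating tubule, was 7.32 to 9.8 against 1.01 to 2.3 TPM (1.92, adjusted p 4.44e-04). Klf4 rose by 1.38 (adjusted p 0.0238), and Grhl2, which acts in the collecting duct, differed by 0.77 (adjusted p 0.0953). Cdx2, an intestinal factor, was listed at 0 in every library.

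**Figure D4:**
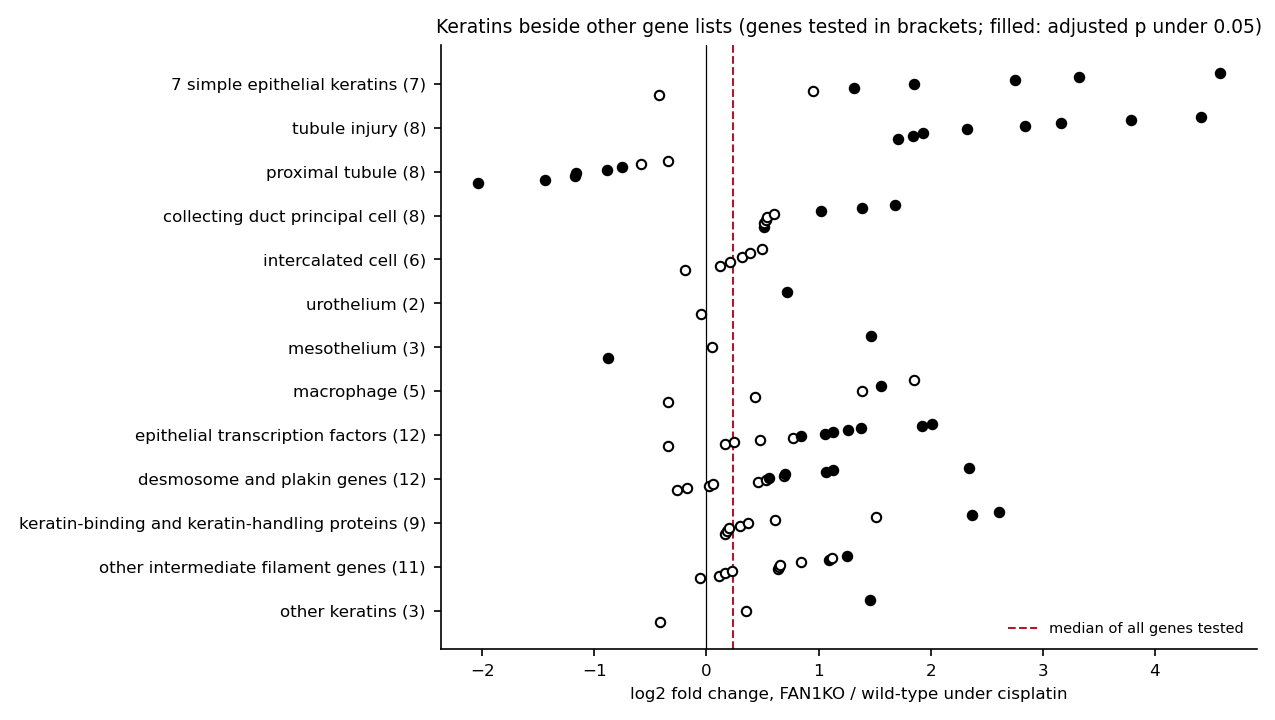
Log2 fold change of FAN1KO over wild-type mice on cisplatin for the 7 keratins and for genes of 12 other lists (rows, with the number of genes tested in brackets). Filled points had an adjusted p under 0.05 and the dashed line is the median of all genes tested (0.24), Krt12, the filled point among the other keratins, passed the filter only through FAN1KO cisplatin kidneys, and the keratin row runs from −0.42 for Krt80 to 4.58 for Krt20.

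Markers of cell types moved in the same comparison. All 8 tubule injury markers were called higher between genotypes under cisplatin (median 2.58), and their summed TPM was 8850 to 15014 in FAN1KO cisplatin kidneys against 518 to 2735 in the 9 others. Lcn2 was 265 to 517 TPM there and 4.37 to 42.1 in wild-type cisplatin kidneys, and Havcr1, which encodes the injury molecule KIM-1, 243 to 679 and 19.6 to 64.9. Of the 8 proximal tubule markers 6 were called lower, where 4.37% of all genes were, and 0 higher (median −1.02). They summed to 2448 to 4245 TPM in FAN1KO cisplatin kidneys and to 5193 to 8664 TPM in the others. Lrp2, the endocytic receptor megalin, was 67.6 to 122 against 211 to 289 TPM under cisplatin (−1.44, limma adjusted p 0.00271).

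Some of these keratins are also expressed by collecting duct cells without injury. Of 8 principal cell markers 4 were called higher and 0 lower (median 0.57), and the list summed to 1476 to 2140 TPM in FAN1KO cisplatin and 477 to 1099 TPM in the 9 other libraries. Aqp2, the water channel of principal cells, was 738 to 1292 TPM in FAN1KO and 208 to 536 TPM in wild-type kidneys under cisplatin (1.39, limma adjusted p 0.0455). Intercalated cell markers gave 0 calls of 6 (median 0.27).

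Urothelium, in which Krt20 is a surface marker, was followed by 7 genes. They summed to 8.05 to 23.5 TPM in FAN1KO cisplatin, 4.11 to 28.1 TPM in wild-type cisplatin and 0.9 to 8.51 TPM in saline kidneys. The uroplakins Upk2 and Upk3a, which define that epithelium, were at most 0.459 and 0.26 TPM in any library, and Upk3a was listed at 0 in all 3 FAN1KO cisplatin kidneys. Of the 2 genes tested between genotypes under cisplatin, Upk1a was called higher (0.72, limma adjusted p 0.0463) at 1.59 to 2.93 TPM and Psca differed by −0.05 (adjusted p 0.971). In cisplatin against saline FAN1KO kidneys both were called higher, Psca by 3.24 (adjusted p 0.00971) and Upk1a by 0.89 (adjusted p 0.0124). In that comparison 34.9% of all genes tested were called higher, and their median was 0.37. Krt5, the keratin of basal urothelial cells, was 0.7 to 1.44 TPM in FAN1KO cisplatin kidneys and at most 0.228 TPM in the others.

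Of 5 mesothelium markers, the cell layer over the kidney capsule, 3 were tested. Msln was called higher (1.47, limma adjusted p 0.0147) and Gpm6a lower (−0.88, adjusted p 0.0209), and the list summed to 38.1 to 47.3 TPM in FAN1KO cisplatin and 62.4 to 82.9 TPM in wild-type cisplatin kidneys. On saline it summed to 38 to 72.4 TPM in FAN1KO, which overlapped FAN1KO cisplatin, and to 71.3 to 106 TPM in wild-type kidneys. Gpm6a differed by −0.80 between genotypes on saline (limma adjusted p 0.228), and its interaction was −0.08 (adjusted p 0.91). For Msln these were −0.83 (adjusted p 0.548) and 2.30 (adjusted p 0.0284). Thick ascending limb markers gave 1 lower call of 5 (median −0.19), distal convoluted tubule markers 2 lower of 4 (−0.95), podocyte markers 0 of 5 (−0.01), endothelium markers 0 of 5 (−1.06) and macrophage markers 1 higher of 5 (1.39). The part of the injury, principal cell, urothelial and mesothelial marker differences in the keratin levels was not tested.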

How the data were processed

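RNA sequencing was performed on whole kidneys of 12 mice, 3 per group, with groups and replicates as the labels give them. The deposited values were TPM for 27179 genes, listed by NCBI Gene number in a single table that the authors made. The submitters' processing notes name mm10 and limma, and the aligner, annotation and counter are not given in the sources used here. RefSeq GRCm38.p6 named 25275 genes, and supplied coordinates and promoters.

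The 14972 genes that reached 1 TPM in 3 or more libraries were tested on log2(TPM + 1) by limma 3.58.1 in R 4.3.3, with 4 group means over all 12 libraries, a mean-variance trend and Benjamini-Hochberg adjustment over all genes tested (threshold 0.05). The log2 scale understates changes of low genes. With 3 separate mice a group, p-values measure the spread between these mice. TPM are relative, so a change in abundant transcripts moves all others.

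Whole reads were recovered from the TPM steps for 100% of 232991 values above 0, and 289 of 295 small RNA genes had a recovered length equal to the annotated one. These reads gave the depth and served voom. Steps were tested on simulated data.

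The genes named were the 7 keratins, other keratins that passed the filter, the 3 nearest profiles to each, and from each list the 3 largest rises and 2 largest falls called between genotypes under cisplatin and its first 2 genes. Evpl, Macf1, Cdx2 and the genes named from the cell type marker lists were picked after their values were seen. The members and lists were chosen with earlier results of these data known. Alternatives were a pseudocount of 0.1, no filter or 1 TPM required in all libraries, median-ratio scaling, mitochondrial genes left out, a Y-linked covariate, no trend, the 6 libraries of a comparison, the replicate number as a block and each library left out. Tables and figures were made in Python 3.11.15 (pandas 2.3.3, numpy 2.4.6, matplotlib 3.10.9).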

Additional observations from a re-analysis of the deposited data

Results flagged for a closer look

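In 4 keratins the effect of cisplatin differed between FAN1KO and wild-type mice by the interaction test in limma over all genes, as given above: by 4.45 on the log2 scale for Krt20, 3.45 for Krt19, 2.98 for Krt18 and 1.94 for Krt8. In each of the 4, all 3 FAN1KO cisplatin kidneys lay above all 9 others. Krt20 passed the filter on low values only with the FAN1KO cisplatin libraries, and with no filter its interaction was again 4.45 (limma adjusted p 0.0194). Under voom on the recovered reads the difference for Krt20 was 4.17 with an adjusted p of 0.276. Outliers within a group were not tested, since each group had 3 mice.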

How the results depend on the processing

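Of 788 values of single keratins under an alternative, 756 kept their direction and their side of the threshold, 18 passed it newly, 2 no longer passed it and 12 changed sign. Part of them could not change direction. A log2 fold change between groups stays the same without a library of another group, or where only the filter, trend, block or set of other groups changes. Many others belong to differences that were not called, so the 756 do not measure stability. With a TPM of at least 1 required in all libraries, Krt19 and Krt20 were not tested and the keratins called higher numbered 3 between genotypes under cisplatin, 3 between treatments in FAN1KO mice and 2 in the interaction. Of all genes tested under that filter, 20.4%, 36.7% and 5.03% were called higher. Calls of lower level came from Krt80 alone: 1 in each of these 3 comparisons in the 8 libraries without Y-linked RNA, and 1 between treatments in FAN1KO mice with the Y-linked covariate and with median-ratio scaling. Of the 14972 genes tested, 1162, 1256 and 434 were called lower in these 3 comparisons in the 8 libraries. Between treatments in FAN1KO mice 1222 were called lower with the covariate and 2101 with median-ratio scaling. In wild-type mice, 1 keratin (Krt20) was called higher in those 8 libraries, where 0.401% of all genes were. Leaving out each library gave 4 to 6 keratins called higher between genotypes under cisplatin, 5 to 6 between treatments in FAN1KO mice, 4 in the interaction, 0 on saline and 0 to 1 between treatments in wild-type mice (1 without wild-type cisplatin replicate 1). The shares of all genes called higher in these fits were, in the same order, 7.81% to 21%, 21% to 37.4%, 1.45% to 6.55%, 0.147% to 0.381% and 0% to 0.274%. The signs that changed belonged to differences that were not called. Between genotypes on saline, leaving out 1 library moved Krt80 over −0.14 to 0.57, Krt19 over −0.28 to 0.12 and Krt23 over −0.25 to 0.36. Between treatments in wild-type mice it moved Krt7 over −0.04 to 0.47, Krt80 over −0.23 to 0.39 and Krt23 over −0.25 to 0.10, and median-ratio scaling gave −0.01 for Krt8. Over all genes, 2931 were called higher between genotypes under cisplatin, against 6035 with the Y-linked covariate, 1829 without mitochondrial genes, 1721 in the 6 libraries of the comparison and 1300 with median-ratio scaling. Leaving out 1 library gave 1169 to 3144, with 1169 without FAN1KO cisplatin replicate 1, 1442 without wild-type cisplatin replicate 1 and 1536 without FAN1KO cisplatin replicate 2. For the interaction 782 became 217 to 981, so the shares over all genes beside the keratin counts rest in part on single libraries. The cause of these changes was not tested. The 8-library fit and voom were chosen after seeing the data.

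Same-numbered mice of different groups did not deviate together (mean correlations −0.24 to −0.14, single pairs −0.61 to 0.6). In every comparison the libraries with Y-linked RNA, which had the smallest size factors of their groups, carried different numbers. These correlations therefore cannot tell whether the numbers pair the samples. With the replicate block, 5, 0, 5, 0 and 4 keratins were called higher in the cisplatin, saline, FAN1KO, wild-type and interaction comparisons, as without it. Of all genes tested with the block, 15.9%, 0.214%, 32%, 0% and 2.34% were called higher. Depth limits Krt20 on saline, where 2 to 20 reads a library were recovered.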

Other observations

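Of the 47 other keratins, 44 did not pass the filter on low values, and 26 of these were above 0 in at least 1 library. Their highest value was in a FAN1KO cisplatin kidney for 13 of the 26. The share of all low genes with their highest value there was not counted, so the 13 are not read as a result about keratins. Median-ratio size factors were 1.09 to 1.38 in FAN1KO cisplatin libraries and 0.752 to 1.09 in the rest. The 4 highest of the 13, named after their values were seen, were Krt5 at 1.44 TPM, Krt88 at 0.794 TPM, Krt42 at 0.433 TPM and Krt87 at 0.42 TPM. Krt25 had its highest value, 0.394 TPM, in a FAN1KO saline kidney. These levels rest on few reads and were given no test.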
